A study of Mus musculus with 6 samples.

Results

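Chaf1b and the histone chaperones that work with it at the replication fork were examined in neural stem cells with and without Pml. The 6 genes are Chaf1a, Chaf1b, Rbbp4, Asf1b, Nasp and Hat1, and all 6 were found by symbol among the 24421 genes of the count table. They are named from their roles, around Chaf1b, which was chosen by its low p-value and fold change between knockout and WT in these same libraries, so their differences between genotypes are given as a description, with no test. The cells were primary neural stem cells of mouse embryos at E13.5 (embryonic day), grown as neurospheres, which are floating clusters of dividing progenitors, with 20 ng/ml each of epidermal growth factor and fibroblast growth factor 2 in 20% oxygen, and they were collected for lysis on the day numbered 4 after dissociation. The libraries, 3 of WT cells and 3 labelled as PML knockout, were made with a 3′ tag kit that places reads near the transcript end. The sources used here do not give the strain, the part of Pml that was removed or whether replicates came from separate embryos or cultures, so p-values measure only how far these 6 samples differ from each other, and that spread may be technical.

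When DNA is copied, nucleosomes are taken apart ahead of the fork and put back on both daughter strands, with newly made histones filling the gaps. New H3 and H4 are bound by Nasp, acetylated by the Hat1 enzyme together with an Rbbp protein, handed to Asf1, and passed on to chromatin assembly factor 1 (CAF-1), a complex of Chaf1a, Chaf1b and Rbbp4 that is held at the fork by the sliding clamp PCNA. Pml builds nuclear bodies that hold Daxx and Atrx, which load the histone variant H3.3 outside of replication.

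Read totals ran from 1775152 to 5917505 per library. The 45S ribosomal RNA row Rn45s took 41.9% and 39.8% of reads in WT replicates 1 and 2, and between 14.6% and 19.6% in the other libraries. A list of 42 liver genes summed to 955, 1685 and 276 CPM (read counts scaled by library size and library factors) in WT replicates 1, 2 and 3 and to between 134 and 193 CPM in the knockout libraries. Of 10 neural stem cell markers 9 were tested, and their sum lay between 6136 and 9131 CPM in all 6 libraries. Neuronal genes summed to between 461 and 656 CPM, oligodendrocyte genes to between 28.8 and 374, fibroblast genes to between 32.7 and 62.2, and endothelial genes to between 1.60 and 4.46. Microglial and macrophage genes, 0 of 9 of them tested, summed to 3.27, 34.4 and 4.99 CPM in WT against 2.41, 2.31 and 0.746 CPM in the knockout, so every WT library was above every knockout library, as for the liver list. The part of these cell types in the results was not tested. The erythroid list summed to between 0 and 1.60 CPM, with every globin of the list that the table holds at 0. Pml had 36, 35 and 44 reads in WT against 14, 23 and 5 in the knockout libraries, which are 10.7, 27.98 and 9.99 CPM against 2.11, 3.79 and 0.746 CPM. Its log2 fold change was -2.81 (SE 0.661). Pml did not pass by edgeR (adjusted p 0.197), the main test used here, but did by DESeq2 (adjusted p 0.00556). A 3′ tag outside the removed part would not report on the deletion. In bulk RNA, fewer cells of a type and less RNA per cell cannot be told apart.

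The promoters of the 3 CAF-1 subunit genes are shown, a choice made by their levels. These were the members whose WT and knockout libraries did not overlap, as for 11.3% of tested genes in that direction. Sequences are from RefSeq on GRCm38.p6, the assembly that mm10 names, and run from 250 bases before to 50 after the annotated start, 5′ to 3′ on the gene's strand. All 6 members matched a RefSeq promoter. Capitals mark the letters TTNNCGC on either strand, the core of the site bound by E2F, the transcription factor family known for driving S phase genes. Overlapping matches run together.
Chaf1b, chr16:93883651-93883950, plus strand: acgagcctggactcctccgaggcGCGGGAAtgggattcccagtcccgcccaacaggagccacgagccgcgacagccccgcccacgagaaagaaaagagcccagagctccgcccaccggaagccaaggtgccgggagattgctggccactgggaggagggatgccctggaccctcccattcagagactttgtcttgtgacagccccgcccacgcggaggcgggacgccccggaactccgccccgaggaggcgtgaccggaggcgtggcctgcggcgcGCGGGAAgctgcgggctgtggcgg
Chaf1a, chr17:56040166-56040465, plus strand: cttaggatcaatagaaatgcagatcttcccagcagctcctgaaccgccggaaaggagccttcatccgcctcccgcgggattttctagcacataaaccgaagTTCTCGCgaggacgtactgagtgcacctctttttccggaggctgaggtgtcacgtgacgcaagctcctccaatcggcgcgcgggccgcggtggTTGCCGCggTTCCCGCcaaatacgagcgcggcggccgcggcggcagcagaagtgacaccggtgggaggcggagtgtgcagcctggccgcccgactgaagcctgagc
Rbbp4, chr4:129335321-129335620, minus strand: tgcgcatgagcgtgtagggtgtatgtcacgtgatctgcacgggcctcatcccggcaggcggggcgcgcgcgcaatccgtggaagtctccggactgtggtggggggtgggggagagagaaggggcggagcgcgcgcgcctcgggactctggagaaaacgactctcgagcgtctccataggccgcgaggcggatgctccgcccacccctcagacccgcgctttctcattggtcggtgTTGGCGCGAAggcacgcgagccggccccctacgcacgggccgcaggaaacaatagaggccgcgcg

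The core TTNNCGC occurred 2 times in the Chaf1b promoter, 3 times in that of Chaf1a and 2 times in that of Rbbp4, and not in those of Asf1b, Nasp and Hat1. It is a short pattern that 33.4% of the 11218 promoters of tested genes hold, and 17 of the 22 S phase genes with a matched promoter held it. Of longer E2F sites only TTTCCCGC, TTTGGCGC, TTTGCCGC and TTTCGCGC were searched, on both strands, and they were in none of the 6. Other longer forms of the site were not searched, so these promoters may hold some. CCAAT, the letters bound by the factor NF-Y, occurred in every member's promoter except that of Chaf1b (38.2% of promoters of tested genes), and 4 times in that of Asf1b. The Sp1 box GGGCGG occurred 5 times in the Chaf1b promoter and was in 64.1% of promoters of tested genes. These matches describe letters in a window, and binding was not measured. Their relation to the levels of the members was not tested.

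Chaf1b (ENSMUSG00000022945.12, chromosome 16, 93883901 to 93906115, plus strand, GRCm38) encodes the WD40-repeat middle subunit of CAF-1. It had 78, 33 and 121 reads in WT replicates 1, 2 and 3 and 50, 31 and 47 in the knockout libraries. These are 23.2, 26.4 and 27.5 CPM in WT against 7.52, 5.11 and 7.01 CPM in the knockout. Every WT library stood above every knockout library, and the lowest WT value was 3.09 times the highest knockout value. The mean level was 25.7 ± 2.21 CPM in WT against 6.55 ± 1.27 in the knockout (SD, n = 3 each), 3.92-fold lower, with a fitted log2 fold change of -1.97 (SE 0.342). By counting error alone (95% Poisson intervals) no WT library reached below 18.2 CPM and no knockout library above 9.92. The liver sum and the Rn45s share were also higher in every WT library than in every knockout library, and their part in the Chaf1b values was not tested.

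**Figure D1:**
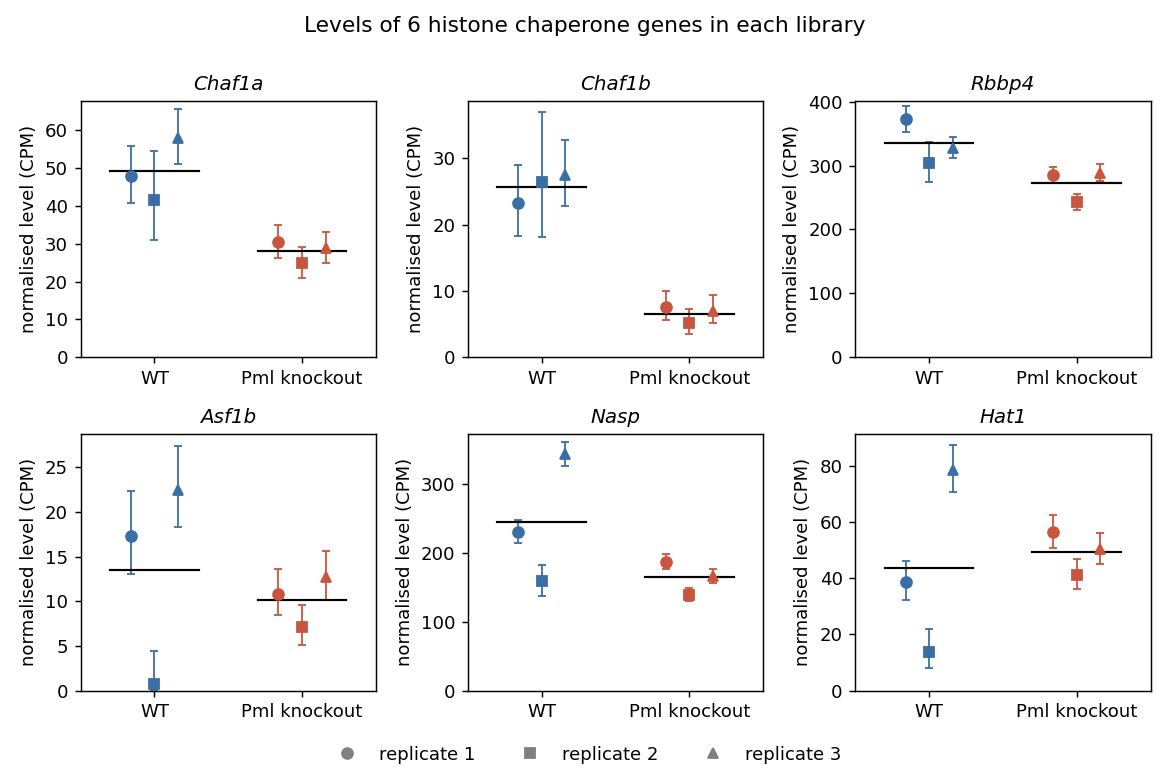
Level of each of the 6 genes (CPM with library factors) in every library, with WT in blue and Pml knockout in red. Markers show the replicate, bars the 95% Poisson counting interval and black lines the group mean. Chaf1b shows the WT values (23.2 to 27.5) well above the knockout values (5.11 to 7.52), whereas Asf1b, Nasp and Hat1 spread widely within WT.

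Chaf1a (ENSMUSG00000002835.9, chromosome 17, 56040439 to 56072289, plus strand) encodes the large subunit of CAF-1, which binds PCNA and the heterochromatin protein HP1. It had 161, 52 and 256 reads in WT against 202, 151 and 193 in the knockout, or 47.9, 41.6 and 58.1 CPM against 30.4, 24.9 and 28.8 CPM. The groups did not overlap, with a lowest WT value 1.37 times the highest knockout value. The mean was 49.2 ± 8.34 CPM in WT against 28.03 ± 2.82 in the knockout (SD, n = 3 each; log2 fold change -0.82, SE 0.279). The last 300 bases of both annotated coding transcripts of Chaf1a lie within Ubxn6, a gene on the opposite strand, so without a stated strand setting the reads of the pair cannot be told apart. Ubxn6, looked up for this overlap, had 42.5 ± 14.4 CPM in WT against 25.1 ± 0.263 in the knockout (log2 fold change -0.74, SE 0.322). Its part in the Chaf1a values was not tested.

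Rbbp4 (ENSMUSG00000057236.10, chromosome 4, 129307100 to 129335370, minus strand) encodes a histone-binding WD40 protein that CAF-1 shares with several chromatin complexes. Its reads numbered 1251, 381 and 1444 in WT against 1896, 1469 and 1937 in the knockout, or 372, 305 and 328 CPM against 285, 242 and 289 CPM. The groups did not overlap but lay close, with a lowest WT value 1.05 times the highest knockout value. The mean was 335 ± 34.4 CPM in WT against 272 ± 26.0 in the knockout (SD, n = 3 each). The log2 fold change was -0.30 (SE 0.243) with library factors and 0.15 with library totals. Library totals moved the median of all tested genes to 0.43, and relative to that median Rbbp4 was at -0.28. The last 300 bases of 1 of its 2 coding transcripts hold a stretch of at least 100 bases that matches 106 other genes at 90% identity or more, so reads there are uncertain. They include Sync, which overlaps it on the opposite strand and had 1 read in all libraries together. The paralog Rbbp7, which pairs with Hat1 in the acetyltransferase, had 109, 36.8 and 180 CPM in WT against 108, 107 and 129 in the knockout, and its groups overlapped (log2 fold change 0.06, SE 0.451, edgeR adjusted p 0.957).

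Scaling does not enter when reads of these genes are set against each other within a library. Chaf1b made up 32.6% of the Chaf1a and Chaf1b reads in WT replicate 1 (exact 95% binomial interval 26.7 to 39.0), 38.8% in WT replicate 2 (28.4 to 50.01) and 32.1% in WT replicate 3 (27.4 to 37.1). The share was 19.8% (15.1 to 25.3), 17.0% (11.9 to 23.3) and 19.6% (14.8 to 25.2) in knockout replicates 1, 2 and 3. Among the reads of all 6 genes, Chaf1b took 3.18%, 4.83% and 3.20% in WT against 1.30%, 1.11% and 1.26% in the knockout. In both comparisons each WT interval lay above each knockout interval. Chaf1b was chosen by its difference in these same libraries, so this is a description and no separate support. Both totals hold Chaf1a reads, which cannot be told apart from those of Ubxn6 without a stated strand setting. These intervals cover counting error only. The sources name no molecular identifiers, so copies of the same molecule may be counted as separate reads and the intervals may be too narrow.

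**Figure D2:**
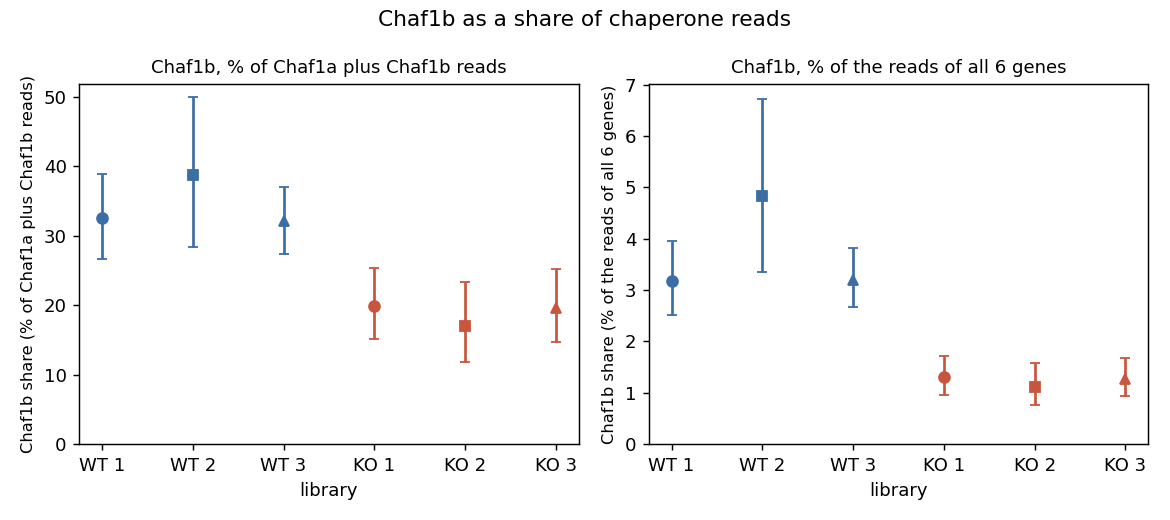
Chaf1b reads as a percentage of Chaf1a plus Chaf1b reads (left) and of the reads of all 6 genes (right) in each library, with exact 95% binomial intervals as bars. The WT libraries (blue) lie between 32.1% and 38.8% on the left and the knockout libraries (red) between 17.0% and 19.8%. Reads of Chaf1a cannot be told apart from those of Ubxn6 without a stated strand setting.

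Nasp, Asf1b and Hat1, which handle H3 and H4 before they reach CAF-1, overlapped between genotypes. Nasp (ENSMUSG00000028693.15, chromosome 4, 116601052 to 116627941, minus strand), the chaperone that protects the soluble H3-H4 store, had 776, 199 and 1515 reads in WT against 1248, 846 and 1117 in the knockout. Its levels were 231, 159 and 344 CPM in WT against 188, 140 and 167 CPM in the knockout, with means of 245 ± 93.2 and 165 ± 24.2 (SD, n = 3 each; log2 fold change -0.58, SE 0.313). WT replicate 2 lay within the knockout range, and WT replicate 3 stood at 2.09 times the knockout mean.

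Asf1b (ENSMUSG00000005470.8, chromosome 8, 83955507 to 83970197, plus strand) encodes the Asf1 form tied to dividing cells. It had 58, 1 and 99 reads in WT against 72, 43 and 85 in the knockout, or 17.3, 0.799 and 22.5 CPM against 10.8, 7.09 and 12.7 CPM. The lone read of WT replicate 2 has an upper 95% Poisson limit of 4.45 CPM, below the lower limit of every other library (the lowest is 5.13 CPM). WT replicates 1 and 3 stood above all knockout libraries (13.51 ± 11.3 CPM in WT, 10.2 ± 2.85 in the knockout, SD, n = 3 each; log2 fold change -0.49, SE 0.669). Its paralog Asf1a, which serves both CAF-1 and the HIRA complex, was at 23.2, 17.6 and 27.5 CPM in WT against 28.1, 31.8 and 36.7 in the knockout. All knockout libraries were above all WT libraries, as for 12.3% of tested genes, but the difference did not pass (log2 fold change 0.48, SE 0.303, edgeR adjusted p 0.454). Asf1b took 42.6%, 4.35% and 45.0% of the reads of the Asf1 pair in WT against 27.8%, 18.2% and 25.7% in the knockout.

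Hat1 (ENSMUSG00000027018.11, chromosome 2, 71388958 to 71441622, plus strand), the enzyme that acetylates new H4, had 130, 17 and 346 reads in WT against 374, 250 and 337 in the knockout. These are 38.7, 13.6 and 78.5 CPM against 56.3, 41.2 and 50.3 CPM. The WT values spread over the whole knockout range on both sides (43.6 ± 32.8 CPM in WT, 49.3 ± 7.57 in the knockout, SD, n = 3 each; log2 fold change 0.14, SE 0.486), and it was the only member with a fitted value above 0.

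By edgeR's quasi-likelihood test over the 11317 tested genes 0 of the 6 members were called lower, where the background is 0%, and 0 higher, where it is 0.00884%. At an unadjusted p under 0.05, 2 members were lower (background 9.19%) and 0 higher (6.7%). DESeq2 called 1 member lower, Chaf1b (background 1.71%), and 0 higher (0.691%). The edgeR exact test also called Chaf1b alone, and limma voom called 0. In the authors' deposited table Chaf1b had a log2 fold change of -1.94 and was the 1 member with an adjusted p under 0.05, beside 1.81% of all genes called lower there and 1.13% called higher. The libraries did not overlap for 3 members, all lower, where 11.3% of tested genes did not overlap in that direction and 12.3% in the other. The median log2 fold change of the 6 was -0.53, and that of all tested genes -0.01. Nothing is read from these counts, since the members were chosen with this contrast known.

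For Asf1b and Hat1 the direction depended on which WT library they were set against, while for Nasp WT replicate 2 lay within the knockout range. The CAF-1 subunits were lower in the knockout beside each of the 3 WT libraries, which restates that their groups did not overlap. Beside WT replicate 3, all 3 knockout libraries were lower for 6 of 6 members (32.2% of tested genes, with 33.9% higher). Beside WT replicate 1 this held for 5 members (37% of genes, with 38% higher), with Hat1 the exception, and beside WT replicate 2 for 3, the CAF-1 subunits (39.1%, with 44.8% higher). Asf1b, Nasp and Hat1 were each highest in WT replicate 3 and lowest, among WT libraries, in replicate 2. The liver sum ran in the opposite order, and the mean log2 CPM of 28 S phase genes in the same order (5.66, 4.42 and 6.12 in WT replicates 1, 2 and 3). Their part in these members' spread was not tested. Within WT the coefficient of variation was 83.7% for Asf1b, 75.1% for Hat1 and 38.1% for Nasp, beside 17.0% for Chaf1a, 10.3% for Rbbp4 and the 8.60% of Chaf1b. The median over 9828 genes with at least 5 CPM was 37.1%, and all 3 CAF-1 subunits lay below it, though choosing Chaf1b by its p-value in these libraries favours a small spread. In the knockout libraries the 6 members varied by 9.54% to 27.9%, around a median gene's 15.8%.

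**Figure D3:**
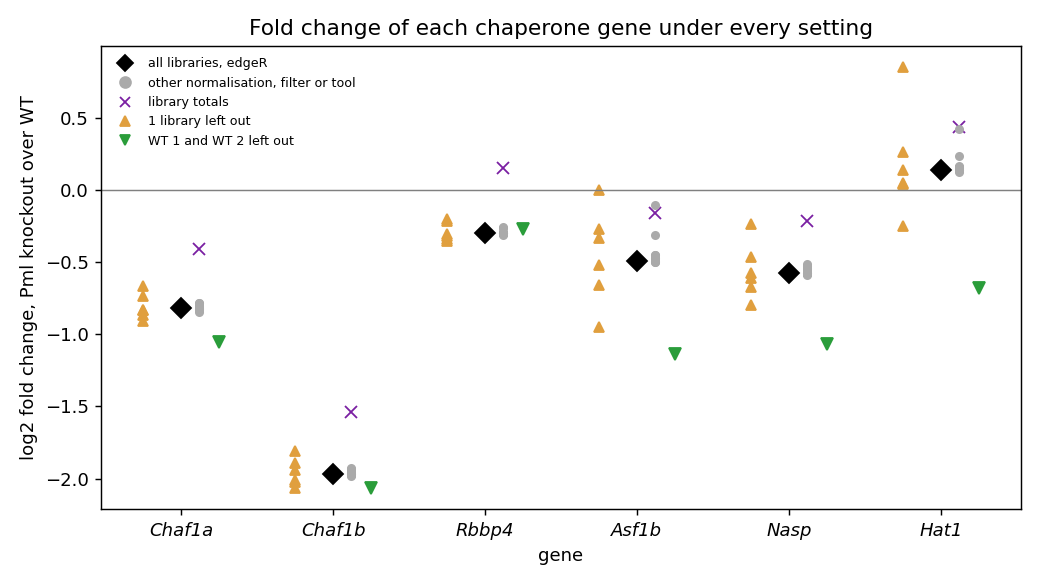
Fitted log2 fold change of each gene, Pml knockout over WT, with all libraries (black), with other normalisations, filters or tools (grey), with library totals (purple), with 1 library left out (orange) and with WT replicates 1 and 2 left out (green). Chaf1b stays between -2.07 and -1.54, while Hat1 runs from -0.68 to 0.85.

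With WT replicates 1 and 2 left out, so that WT replicate 3 stood alone for WT and was assumed to vary as the knockout libraries do, the log2 fold change was -2.07 for Chaf1b, -1.06 for Chaf1a, -1.07 for Nasp, -1.14 for Asf1b, -0.68 for Hat1 and -0.27 for Rbbp4. With WT replicate 3 left out instead, it was -1.89 for Chaf1b, -0.67 for Chaf1a and -0.30 for Rbbp4, but -0.24 for Nasp, 0.00 for Asf1b and 0.85 for Hat1. Hat1 thus changed sign with the WT libraries used and Asf1b went from below 0 to about 0, while Chaf1b, Chaf1a, Rbbp4 and Nasp stayed below 0 in both.

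Chaf1b was also set beside genes of S phase, most of which had fitted values below 0. Of 28 S phase genes, 27 had a log2 fold change below 0, as did 50.3% of all tested genes, with a median of -0.46. The exception, Mcm4, named because it stood alone, had 39.2 ± 33.6 CPM in WT against 70.6 ± 16.01 in the knockout. By edgeR 0 S phase genes passed (6 at an unadjusted p under 0.05, all lower, background 9.19%). DESeq2 (background 1.71%) and the edgeR exact test each called 2 lower. These were Mcm7, a subunit of the replicative helicase (280 ± 30.5 CPM in WT, 134 ± 27.6 in the knockout; edgeR adjusted p 0.197, DESeq2 adjusted p 0.0120), and Lig1, the ligase that seals Okazaki fragments (471 ± 125 and 203 ± 63.2 CPM; edgeR adjusted p 0.208, DESeq2 adjusted p 0.0252). The list's median was -0.05 without WT replicate 3 and -0.97 without WT replicates 1 and 2.

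Taken relative to the mean of those S phase genes in the same library, Chaf1b stood at -1.09, 0.33 and -1.32 (log2) in WT and at -2.36, -2.33 and -2.34 in the knockout. The knockout libraries lay below all WT libraries by this measure, with a difference of -1.65 between the group means (SD 0.892 in WT, 0.0191 in the knockout). WT replicate 2 had the lowest S phase mean of all libraries (4.42, against 5.35, 4.80 and 5.23 in the knockout), which raises its relative value. This measure uses the same Chaf1b reads, and Chaf1b was chosen by its difference in these libraries. The gap is therefore a description and no separate support. The relative values of Chaf1a, Rbbp4, Asf1b and Nasp overlapped between genotypes. Hat1 stood at -0.37, -0.61 and 0.18 in WT and at 0.47, 0.58 and 0.43 in the knockout, with no overlap and the knockout higher. The share of all tested genes without overlap by this measure was not computed, so nothing is read from the lack of overlap of Chaf1b or Hat1.

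**Figure D4:**
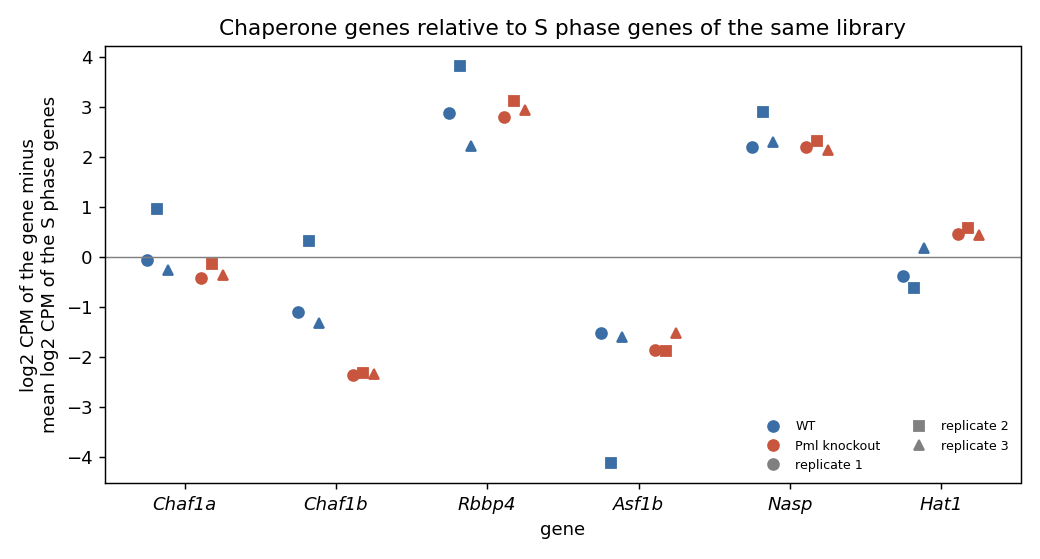
Log2 CPM of each gene minus the mean log2 CPM of 28 S phase genes of the same library, with WT in blue and Pml knockout in red and markers for replicates. Heights compare libraries for 1 gene, not genes with each other. The knockout points of Chaf1b (-2.36 to -2.33) lie together below the WT points.

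The lists around the members are given with library factors. For every list the shares over all tested genes apply. At an unadjusted p under 0.05 by edgeR, 9.19% were lower and 6.7% higher. Groups did not overlap for 11.3% in the lower and 12.3% in the higher direction. DESeq2 called 1.71% lower and 0.691% higher. Library totals moved the median of all tested genes to 0.43, and with them the medians of 3 lists went above 0, to 0.05 for the other H3-H4 chaperones, 0.19 for the heterochromatin partners and 0.28 for G2 and mitosis, all below that of all genes. Among the lists around the members, the one of PCNA, its loaders and its unloaders held the lowest value, that of Rfc5. Of 10 genes for PCNA, its loaders and its unloaders, 8 were below 0 (median -0.43). By edgeR 0 passed, with 3 lower and 0 higher at an unadjusted p under 0.05, and DESeq2 and the exact test called 2 lower. Rfc5, a subunit of the clamp loader, had 54.2 ± 16.6 CPM in WT against 20.0 ± 4.46 in the knockout (log2 fold change -1.43, SE 0.341; edgeR adjusted p 0.197, DESeq2 adjusted p 0.0136). Rfc2, another, had 89.0 ± 37.9 and 33.6 ± 6.14 CPM (-1.39, SE 0.341; edgeR adjusted p 0.197, DESeq2 adjusted p 0.0192). Chtf8, a subunit of an alternative loader, had 181 ± 113 and 68.8 ± 8.48 CPM, and Rfc4 had 25.4 ± 6.94 and 16.8 ± 3.51. The median was -0.07 without WT replicate 3 and -0.74 without WT replicates 1 and 2.

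Of 15 other H3-H4 chaperones and fork partners, 11 were below 0 (median -0.33), and by edgeR 0 passed, with 4 lower and 0 higher at an unadjusted p under 0.05, and 0 by DESeq2 or the exact test. Ipo4, which imports H3 and H4 into the nucleus, had 50.5 ± 19.3 CPM in WT against 23.1 ± 0.933 in the knockout (edgeR adjusted p 0.220). Tonsl, which reads new H4 behind the fork, had 9.84 ± 2.25 and 4.18 ± 1.21 CPM (edgeR adjusted p 0.252). Sart3, which also binds histones, had 92.8 ± 23.7 and 52.9 ± 3.76 CPM, and Pole3, a histone-fold subunit of the leading strand polymerase, had 47.9 ± 13.1 and 28.8 ± 8.07.

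Among 10 heterochromatin partners of CAF-1, 7 were below 0 (median -0.22). By edgeR 0 passed, with 3 lower and 0 higher at an unadjusted p under 0.05, and 0 by DESeq2 or the exact test. Trim28, the corepressor that recruits histone methyltransferases, had 169 ± 39.5 CPM in WT against 95.0 ± 1.15 in the knockout (edgeR adjusted p 0.228). The H3K9 methyltransferase genes Ehmt2 (87.0 ± 73.3 and 32.2 ± 2.76 CPM) and Suv39h1 (41.7 ± 11.2 and 23.3 ± 2.23 CPM) also had the knockout libraries below all WT libraries, as did 11.3% of tested genes. Cbx3, an HP1 protein, was at 126 ± 53.4 and 164 ± 19.9 CPM, with overlap.

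Chaperones that work outside replication lay near 0. Of 11 such genes 5 were below 0 (median 0.10), and by edgeR 0 passed, with 0 at an unadjusted p under 0.05 and 0 by DESeq2 or the exact test. Atrx, which loads H3.3 with Daxx, had 347 ± 116 CPM in WT against 471 ± 60.3 in the knockout (edgeR adjusted p 0.484). Hjurp, which loads the centromeric H3 variant, had 29.6 ± 10.9 and 25.8 ± 4.12 CPM. Ubn2 and Cabin1, partners of HIRA, had 82.98 ± 10.001 and 94.1 ± 13.3 CPM, and 55.4 ± 3.68 and 49.1 ± 7.55 CPM. This list too moved with the WT libraries, with a median of 0.29 without WT replicate 3 and -0.50 without WT replicates 1 and 2. Whether it differed from the replication-coupled genes was not tested.

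Of 13 H2A-H2B and general histone chaperones, 11 were below 0 (median -0.49). By edgeR 0 passed, with 3 lower and 0 higher at an unadjusted p under 0.05, and 0 by DESeq2 or the exact test. Ssrp1, a subunit of the FACT chaperone, had 477 ± 111 CPM in WT against 300.2 ± 76.2 in the knockout (edgeR adjusted p 0.306), with no overlap. Vps72, a chaperone of the variant H2A.Z, had 167 ± 89.4 and 82.3 ± 7.14 CPM, and Anp32b 552 ± 217 and 296 ± 118. Of 21 tested genes of other complexes that contain Rbbp4, 9 were below 0 (median 0.15). By edgeR 0 passed, with 3 lower and 1 higher at an unadjusted p under 0.05, and 0 by DESeq2 or the exact test. The NuRD subunits Gatad2a (170 ± 44.5 and 99.6 ± 13.9 CPM), Mbd3 (99.0 ± 20.6 and 62.6 ± 3.74) and Chd4 (505 ± 145 and 322 ± 17.6) had the knockout below all WT libraries, as did 11.3% of tested genes. Mta1, also of NuRD, went the other way with 66.9 ± 24.6 CPM in WT against 113 ± 13.4 in the knockout (edgeR adjusted p 0.294).

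Genes of G2 and mitosis split evenly, with 9 of 18 below 0 (median -0.06). By edgeR 0 passed, with 1 lower and 0 higher at an unadjusted p under 0.05, and 0 by DESeq2 or the exact test. Cdc20, an activator of the anaphase-promoting complex, had 171 ± 43.8 CPM in WT against 108 ± 22.2 in the knockout. Birc5 had 147 ± 50.7 and 94.5 ± 10.9 CPM and Plk1 176 ± 70.2 and 112 ± 17.3, both with overlap. Aurkb, the kinase of the chromosomal passenger complex, went the other way with 6.54 ± 4.39 and 14.8 ± 5.24 CPM. It had few reads, 27, 2 and 44 in WT against 78, 72 and 140 in the knockout. The median of this list changed sign with the WT libraries, from 0.38 without WT replicate 3 to -0.63 without WT replicates 1 and 2.

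**Figure D5:**
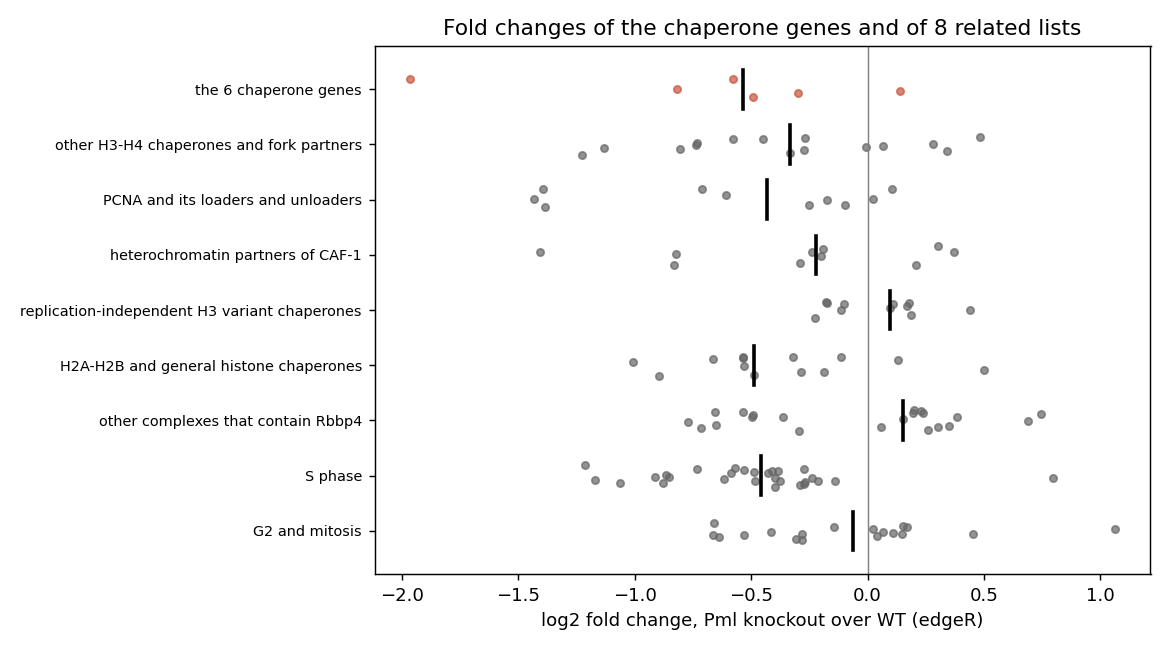
Log2 fold change, Pml knockout over WT, of the 6 chaperone genes (red) and of every tested gene in 8 related lists (grey), with the median of each list as a black bar. Chaf1b at -1.97 lies below every gene of the 8 lists, of which the lowest is Rfc5 at -1.43, and the S phase genes lie below 0 except Mcm4.

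Genes whose levels followed that of Chaf1b most closely over the 6 libraries were sought among 9827 others with at least 5 CPM. The 5 highest Pearson correlations of log2 CPM were those of Letm1 (0.990), a mitochondrial inner membrane protein, Pdzd11 (0.990), Lsm2 (0.989), a subunit of the Lsm ring of RNA processing, Pdcd11 (0.989), a ribosome biogenesis factor, and Wbscr16 (0.988). As the choice by likeness to Chaf1b makes likely, every knockout library lay below every WT library in all 5 (11.3% of tested genes), as with 86.3, 87.1 and 87.2 CPM against 63.0, 51.9 and 60.9 CPM for Letm1. Their differences were smaller than that of Chaf1b, with log2 fold changes from -1.12 for Lsm2 to -0.40 for Pdcd11. Among the members, Chaf1a was at rank 55 (0.95003), Rbbp4 at 646 (0.814) and Nasp at 1699 (0.646), and Asf1b and Hat1 had negative values (-0.13 and -0.27). These values describe 6 libraries of 2 genotypes and carry no p.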

How the data were processed

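RNA of 3 WT and 3 Pml knockout neurosphere samples was sequenced as 3′ tags. The tools named in the submitters' processing notes are FastQC, HISAT2, HTSeq and edgeR, with the mm10 build; the sources used here give no versions, annotation or strand setting. The deposited table holds raw read counts per gene, and per the file headers the authors' own log2 fold changes and p-values, cited only where named; 6 columns of normalised values were not used. Columns were matched by library names in the labels. Rows without a gene name numbered 0.

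The analysis ran in R 4.3.3 with edgeR 4.0.16: default filter (minimum 10, total 15), trimmed mean of M values, robust quasi-likelihood F test, Benjamini-Hochberg adjusted p under 0.05 over all tested genes. The SE is the size of the log2 fold change over root F. Levels are CPM with library factors; correlations and the S phase comparison used log2 CPM with a prior count of 2. DESeq2 1.42.0, limma 3.58.1 (voom), other scalings and filters, a replicate block and left-out libraries were alternatives. The procedure was tested on simulated data. Coordinates are GENCODE M21; transcript ends were compared with blastn 2.17.0 (90% identity, 100 bases). Self-written lists and the members were chosen with earlier results of these data known. Named genes are the members, the paralogs Asf1a and Rbbp7, Pml, up to 4 genes per list with the smallest p, and the 5 most correlated with Chaf1b; not all are printed. Total counts of 1775152 to 5917505 per library limit precision for genes of few reads.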

Additional observations from a re-analysis of the deposited data

How the results depend on the processing

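The total of genes called was 1 with all libraries. It was 0 with library totals, with the size factors of DESeq2, with a mean of at least 5 CPM, by limma voom and without the Rn45s row, 3 with no count filter, 2 with the replicate block, 299 by DESeq2 and 359 by the edgeR exact test. It ran from 0 to 1526 with 1 library left out (1526 without WT replicate 3) and was 142 without WT replicates 1 and 2. Of the 126 listed genes that are no members, 0 were called with all libraries, 4 by DESeq2, 4 by the exact test, 0 to 15 with 1 library left out and 11 without WT replicates 1 and 2. Of the members, 0 were called with all libraries, 1 by DESeq2, 1 by the exact test (Chaf1b each time), 0 to 1 with 1 library left out and 2 (Chaf1b and Nasp) without WT replicates 1 and 2. Library totals moved the median of all genes to 0.43 and Chaf1b to -1.54, Chaf1a to -0.41 and Rbbp4 to 0.15, which are -1.97, -0.84 and -0.28 relative to that median. Without WT replicates 1 and 2 Chaf1a was at -1.06 and Nasp at -1.07. With 1 library left out Chaf1b ran from -2.06 to -1.81, Chaf1a from -0.91 to -0.67, Rbbp4 from -0.35 to -0.20, Nasp from -0.80 to -0.24, Asf1b from -0.95 to 0.00 and Hat1 from -0.25 to 0.85. The cause of these shifts was not tested. The sources used here do not state whether replicate numbers pair the samples. Replicate numbers are those of the sample titles, and the library names of the knockout samples carry different numbers. Deviations of same-numbered libraries correlated at -0.003, 0.067 and 0.19, and those of differently numbered libraries between -0.18 and 0.087. With 3 libraries per group these values cannot decide whether samples were paired. With the replicate block Chaf1b stayed at -1.97 and 0 members were called. Depth limits the precision of genes with few reads, such as Chaf1b with 31 to 121 reads per library.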
